A study of Mus musculus with 4 samples.

Results

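MHC class II presentation genes were examined in CD45+ cells of the adipose tissue (AT) of mice fed a normal diet (ND) or a high-fat diet (HFD). They are 10 genes, chosen by name from the 35869 genes listed in each sample, and every one of them was listed and passed the filter on low values that left 16849 genes for testing. The cells came from the epididymal white adipose tissue (eWAT) of male WT C57BL/6 mice, a strain of the b haplotype, and were enriched with CD45 microbeads after collagenase digestion. Diets began at 8 weeks of age and lasted 12 weeks, with 2 RNA-seq samples from ND and 2 from HFD. All groups were WT, and the diet was the only difference between them given in the labels. The number of mice behind each library is not given in the sources used here, so p-values measure the spread between these samples only, which may be technical. Levels are TPM (a count divided by gene length and scaled to a fixed total per sample), and a difference is HFD minus ND on log2(TPM + 1) unless stated otherwise.

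Class II molecules display peptides from the endosomes of antigen-presenting cells to CD4 T cells, and in AT they are made mostly by macrophages, dendritic cells (DCs) and B cells. An alpha and a beta chain pair in the endoplasmic reticulum with the invariant chain, which blocks the groove and brings the complex to the endosomes, where proteases trim the invariant chain and the DM protein exchanges its last fragment for peptide. The DO protein binds DM and inhibits it. Transcription of most of these genes depends on Ciita, the class II transactivator, which has no DNA-binding domain of its own and is held at the promoters by the RFX, CREB and NF-Y proteins on a shared X-Y module.

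The class II genes were lower in HFD as a group. Of the 10, 9 were called lower and 0 higher, where a call needed an adjusted p under 0.05 in limma and a change of at least 1.5-fold. This count was 5 under median-ratio scaling, 4 under quantile normalization and 0 with either ND sample left out, where no gene of the whole table was called. Over all genes tested, 10.3% were called lower, 8.08% higher and 18.4% in either direction. The median log2 difference of the 10 genes was -0.72 (range -1.89 to -0.60), beside 0.06 over all genes tested. Both HFD values lay below both ND values for 10 of 10, which was so for 32.8% of all genes tested. In bulk RNA, fewer cells of a type and less RNA per cell cannot be told apart.

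Most of these genes lie in the class II region of chromosome 17 (H2-Oa at chr17:34092340-34095234 to H2-Eb1 at chr17:34305867-34316674 in GENCODE vM21, mm10), and Ciita is at chr16:10480059-10528418. Cd74 lies on neither chromosome. RefSeq promoter windows of GRCm38.p6, from 250 bases before to 50 after a start, were matched for 7 of the 10 genes as 8 windows. H2-Ab1, Cd74 and Ciita were not matched. The stretches printed next, 5′ to 3′ on the gene's own strand, are the part that 6 of the 7 matched genes share, and the capitals mark letters of the X box (AAC) and the Y box (TGATTGG).
H2-Aa: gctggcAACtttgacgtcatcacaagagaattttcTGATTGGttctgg
H2-Eb1: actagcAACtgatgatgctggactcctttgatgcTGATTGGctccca
H2-DMb1: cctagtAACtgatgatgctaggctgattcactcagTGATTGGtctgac
H2-DMb2: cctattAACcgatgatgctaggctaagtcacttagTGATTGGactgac
H2-Oa: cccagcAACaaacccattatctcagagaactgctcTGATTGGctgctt
H2-Ob: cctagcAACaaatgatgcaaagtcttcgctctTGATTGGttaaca

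They stand at chr17:34287861-34287908 on the minus strand for H2-Aa and on the plus strand at chr17:34305772-34305818 for H2-Eb1, chr17:34153093-34153140 for H2-DMb1, chr17:34145122-34145169 for H2-DMb2, chr17:34092299-34092346 for H2-Oa and chr17:34238814-34238858 for H2-Ob. The first base of the Y box letters was 50 bases before the start in H2-Aa, 61 in H2-Eb1, 63 in H2-DMb1, 92 in H2-DMb2, 45 in H2-Oa and 59 in H2-Ob. The letters AAC, then any 23 to 26 bases, then TGATTGG, searched on both strands, were found in 6 of the 8 windows and in 151 of all 32851 windows of that length (0.46%). TGATTGG alone was found in 2568 of the 32851 (7.82%). Between these letters, ATGATGC was found in 4 of the 6 stretches (H2-Eb1, H2-DMb1, H2-DMb2 and H2-Ob) and on either strand in 2.46% of all windows. Neither of the 2 windows of H2-DMa held the pair of letters. The letters were picked after the sequences had been read, so these shares describe the windows and carry no test.

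The classical chains and the invariant chain were the most abundant of the 10 genes. In ND, H2-Aa and H2-Ab1 ranked between 4 and 5 by TPM among all 35869 genes, Cd74 ranked 9 and H2-Eb1 ranked 14. In HFD, H2-Aa ranked 10 and 9, H2-Ab1 ranked 13 in both samples, Cd74 ranked 19 in both, and H2-Eb1 ranked 34 and 28. Together these 4 genes took 2.61% and 2.45% of all TPM in the ND samples and 1.55% and 1.67% in the HFD samples.

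H2-Aa, the alpha chain of I-A, the classical class II molecule of this strain, was at 7556.7 and 7182.2 TPM in ND and at 4692.8 and 5025.6 TPM in HFD. Both HFD samples were below both ND samples, and the samples of a diet lay close together. Mean levels were 7369 ± 265 TPM (SD, n = 2) in ND and 4859 ± 235 (SD, n = 2) in HFD, 1.52-fold lower in HFD, with a log2 difference of -0.60 ± 0.055 (SE) and a limma adjusted p of 0.0117. Its partner H2-Ab1, the beta chain of I-A, was at 7590.9 and 7136.5 TPM in ND and at 4321.5 and 4703.6 TPM in HFD. The groups again did not overlap. H2-Ab1 was 1.63-fold lower in HFD, with a log2 difference of -0.71 ± 0.064 (SE) and a limma adjusted p of 0.0117.

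H2-Eb1, the beta chain of I-E, was at 4803.0 and 4514.2 TPM in ND and at 2882.9 and 3103.1 TPM in HFD. Without overlap between the diets, it was 1.56-fold lower in HFD, with a log2 difference of -0.64 ± 0.060 (SE) and a limma adjusted p of 0.0123. Mice of the b haplotype lack a working I-E alpha chain. The alpha chain gene H2-Ea was not listed, and its pseudogene entry H2-Ea-ps was at 1.5 and 1.1 TPM in ND and at 0.9 and 0.8 TPM in HFD. H2-Eb2, a further beta chain gene, was at 1.7 and 1.8 TPM in ND and at 0.9 and 1.9 TPM in HFD. Neither was called, with log2 differences of -0.31 for H2-Ea-ps and -0.23 for H2-Eb2 and limma adjusted p of 0.203 and 0.562. H2-Eb1 was thus abundant in both diets, beside I-E alpha chain values near the lower end of the scale.

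Cd74, the invariant chain and also a surface receptor for the cytokine MIF, was at 6189.3 and 5688.5 TPM in ND and at 3630.7 and 3818.6 TPM in HFD. The HFD samples were both lower. The fall was 1.59-fold, with a log2 difference of -0.67 ± 0.061 (SE) and a limma adjusted p of 0.0117. Per unit of the summed level of H2-Aa, H2-Ab1 and H2-Eb1, Cd74 stood at 0.310 and 0.302 in ND and at 0.305 and 0.298 in HFD. These ratios overlapped between the diets (log2 difference -0.02, two-sided exact permutation p = 0.667, where the smallest p of 2 against 2 samples is 0.333). The invariant chain thus moved by nearly the same factor as the chains it accompanies. The ratio of H2-Ab1 to H2-Aa was 1.005 and 0.994 in ND and 0.921 and 0.936 in HFD. It did not overlap between the diets, but the log2 difference was small at -0.11 and the exact permutation p of 0.333 is the smallest possible here.

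**Figure D1:**
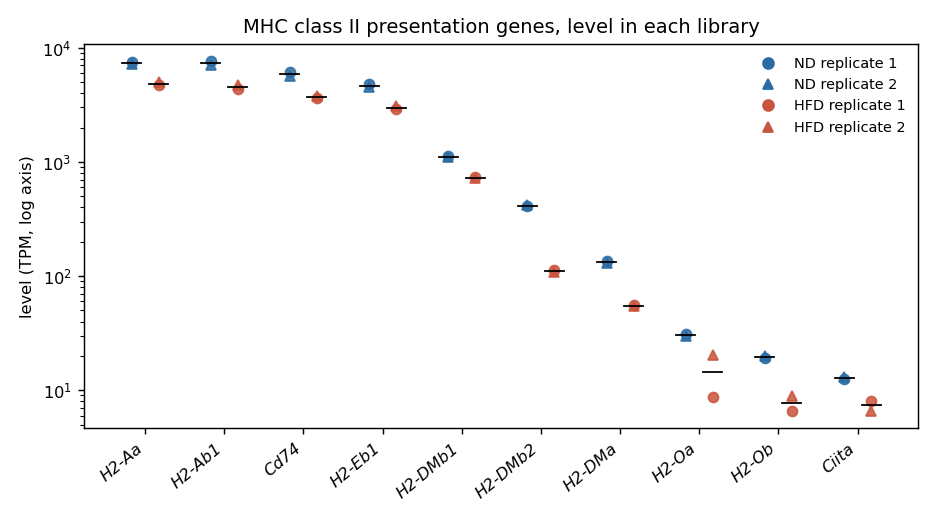
Level of each of the 10 class II genes in each library in TPM on a log axis, with ND in blue, HFD in red, circles for replicate 1, triangles for replicate 2 and black bars for the mean of a diet. Both HFD points lie below both ND points for all 10 genes, and only H2-Oa shows HFD points far apart, at 8.7 and 20.4 TPM.

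The DM genes included the largest fall, and their replicates were the most even. H2-DMb2, one of a pair of beta chain genes of DM, was at 407.7 and 422.4 TPM in ND and at 113.6 and 109.2 TPM in HFD. Each HFD sample was well below each ND sample. Of the 10 genes H2-DMb2 fell the most, 3.73-fold, with a log2 difference of -1.89 ± 0.045 (SE) and a limma adjusted p of 0.00378. H2-DMa, the alpha chain that pairs with either beta chain, was at 134.2 and 129.7 TPM in ND and at 55.7 and 54.7 TPM in HFD. It showed no overlap and was 2.39-fold lower, with a log2 difference of -1.24 ± 0.045 (SE) and a limma adjusted p of 0.00449. H2-DMb1, the other beta chain gene, was at 1116.2 and 1112.6 TPM in ND and at 732.5 and 724.1 TPM in HFD. Its samples hardly differed within a diet and did not overlap between them, for a 1.53-fold lower level in HFD, a log2 difference of -0.61 ± 0.030 (SE) and a limma adjusted p of 0.00559.

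The beta chain genes of DM therefore fell by different amounts. The level of H2-DMb2 was 0.365 and 0.380 of that of H2-DMb1 in ND and 0.155 and 0.151 of it in HFD. The ratio, which was chosen after the values had been seen, did not overlap between the diets and was 0.411 times as high in HFD (log2 difference -1.28, exact permutation p = 0.333, the smallest possible). The genes are near copies, with 94.6% identity over 1219 aligned transcript bases and a longest identical run of 221 bases. Of the 50-base windows of the transcripts, 27.2% of those of H2-DMb1 and 21.2% of those of H2-DMb2 occur in the other gene. No other pair among the 10 genes shares such a window. How reads that fit both genes were counted is not given in the sources used here. Their effect on the levels of H2-DMb1 and H2-DMb2 was not tested.

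H2-Oa and H2-Ob, which encode the alpha and beta chains of DO, were far lower in level than DM. H2-Ob was at 19.1 and 20.1 TPM in ND and at 6.6 and 8.9 TPM in HFD. Without overlap, it was 2.53-fold lower in HFD, with a log2 difference of -1.25 ± 0.16 (SE) and a limma adjusted p of 0.0208. H2-Oa was at 31.3 and 29.7 TPM in ND and at 8.7 and 20.4 TPM in HFD. Both HFD values were lower, but they differed from each other by more than HFD replicate 2 differed from ND. This was the only one of the 10 genes without a call, with a log2 difference of -1.13 ± 0.44 (SE), a 95% interval from -2.45 to 0.20 and a limma adjusted p of 0.158.

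The summed DM genes were 32.9 and 33.4 times the summed DO genes in ND and 58.9 and 30.3 times in HFD. HFD replicate 1 was above and HFD replicate 2 below both ND samples, so that the ratio did not separate the diets (log2 difference 0.35, exact permutation p = 1). Without HFD replicate 1 the log2 difference was -0.13, and without HFD replicate 2 H2-Oa passed the call, at -1.70 with a limma adjusted p of 0.0267. The DM sum is mostly H2-DMb1, and for H2-DMa over H2-Ob alone the log2 difference was 0.10. The 2 HFD samples thus do not settle the level of DO against DM.

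Ciita, the transactivator of the class II promoters, was low in both diets. It was at 12.6 and 13.1 TPM in ND and at 8.1 and 6.6 TPM in HFD. The groups did not overlap, and Ciita was 1.75-fold lower in HFD, with a log2 difference of -0.74 ± 0.12 (SE) and a limma adjusted p of 0.0322. The call was lost with a pseudocount of 5 (log2 difference -0.53) and when no filter on low values was applied (adjusted p = 0.0607).

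**Figure D2:**
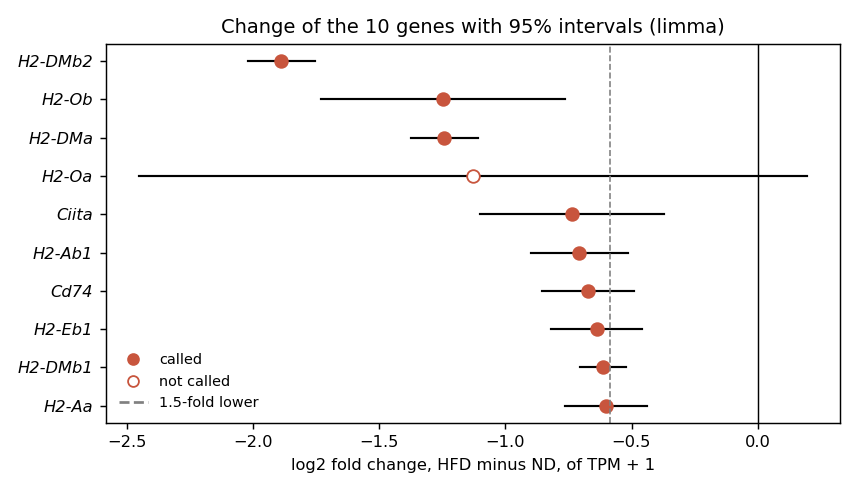
Log2 difference (HFD minus ND, of TPM + 1) of the 10 class II genes with 95% intervals from limma, filled where called and open where not, with a dashed line at the 1.5-fold limit. H2-DMb2 stands apart at -1.89, and only the interval of H2-Oa, from -2.45 to 0.20, reaches 0.

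The depth behind these values was estimated from short microRNA genes, whose values step by whole reads. Some 198 to 688 reads stood behind H2-Oa in a sample, 575 to 1780 behind H2-Ob, 885 to 2060 behind Ciita and 268000 to 449000 behind H2-Aa. Counting error is therefore small for the chains and Cd74, and H2-Oa in HFD replicate 1, at about 198 reads, is the thinnest value. The gene models of H2-DMa, H2-Oa and Ciita overlap those of Brd2, the lncRNA BC051537 and Dexi, and whether strand was used in counting is not given in the sources used here. BC051537 was at 8 and 6.1 TPM in ND and at 1.7 and 4.4 TPM in HFD, in the same sample order as H2-Oa. Dexi was at 10 and 10.2 TPM in ND and at 7.4 and 7.3 TPM in HFD, in the same sample order as Ciita. Brd2 was at 21.2 and 22 TPM in ND and at 21.4 and 20.3 TPM in HFD, where the diets overlapped. The part of these overlaps in the class II values was not tested.

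**Figure D3:**
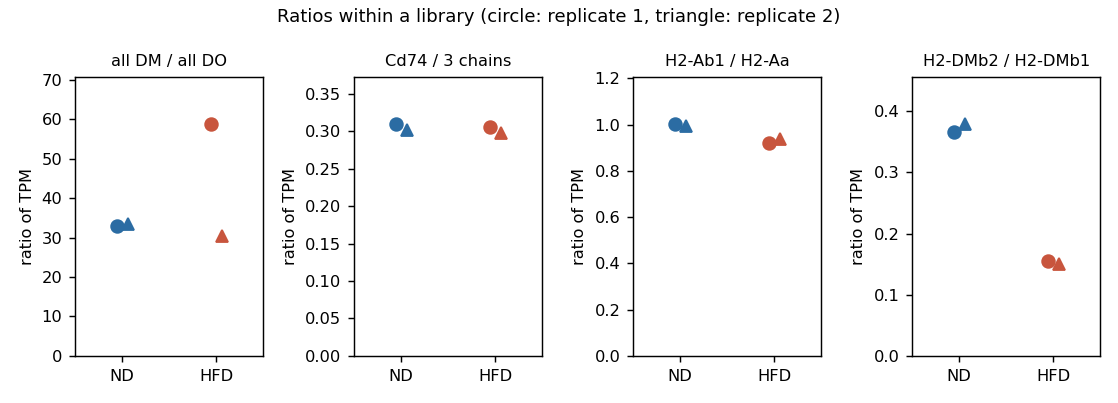
Ratios of TPM within each library by diet, with axes from 0, circles for replicate 1 and triangles for replicate 2. The ratio of H2-DMb2 to H2-DMb1 lies at 0.365 and 0.380 in ND and 0.155 and 0.151 in HFD, the ratio of Cd74 to the 3 classical chains stays between 0.298 and 0.310, and the ratio of DM to DO is high in HFD replicate 1 alone, at 58.9.

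The genes were ordered by the size of the fall. H2-Aa, H2-DMb1, H2-Eb1, Cd74, H2-Ab1 and Ciita had log2 differences from -0.60 to -0.74, and neighbours in this order had overlapping 95% intervals. H2-Oa, H2-DMa, H2-Ob and H2-DMb2 had log2 differences from -1.13 to -1.89. The 95% interval of H2-DMa, from -1.38 to -1.11, lay wholly below that of Cd74, from -0.85 to -0.49. The interval of H2-DMb2, from -2.02 to -1.75, overlapped that of H2-Oa and lay below those of the other genes. Apart from the ratios given above, differences between genes were not tested as such.

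Calls of the 4 most abundant genes depended on how the libraries were scaled. Under median-ratio scaling the limma adjusted p was 0.108 for H2-Aa, 0.0844 for H2-Ab1, 0.0901 for H2-Eb1 and 0.0828 for Cd74, and under quantile normalization their log2 differences shrank to between -0.57 and -0.38, under the fold limit, as did that of H2-DMb1 (-0.55). H2-DMa, H2-DMb2, H2-Ob and Ciita kept their calls under both scalings. All 10 genes stayed lower in HFD under each scaling that kept them. With an ND sample left out, the adjusted p of the 10 genes ran from 0.176 to 0.491 without ND replicate 1 and from 0.168 to 0.454 without ND replicate 2. Without HFD replicate 1, 7 were called, H2-Aa (log2 difference -0.55) and Cd74 (adjusted p = 0.0548) being lost. Without HFD replicate 2, 10 were called.

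None of the DNA-binding partners of Ciita was called. Of 7 genes (Rfx5, Rfxap, Rfxank, Nfya, Nfyb, Nfyc and Creb1), 0 were called in either direction, and their median log2 difference was -0.28. At an adjusted p under 0.05 without a fold limit, 27.3% of all genes passed and again 0 of these 7 did. Rfx5, the subunit that contacts the X box, was at 1.9 and 2 TPM in ND and at 1.7 and 1.2 TPM in HFD (log2 difference -0.28, limma adjusted p = 0.266). Rfxap, its associated protein, was at 24.2 and 23.6 TPM in ND and at 27.4 and 26.9 TPM in HFD (0.18, limma adjusted p = 0.1004). Nfyb, a subunit of the Y box factor, was at 7.3 and 7.4 TPM in ND and at 5.6 and 5.5 TPM in HFD and came nearest to a call (-0.35, limma adjusted p = 0.0539). All but Rfxap had a negative difference, and none reached the 1.5-fold limit.

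Of 10 genes of endosomal processing, which make peptides and trim the invariant chain, 7 were called higher in HFD and 1 lower, beside 8.08% and 10.3% of all genes tested, with a median log2 difference of 0.80. Ctsl, the gene of cathepsin L, rose the most, from a mean of 140.7 ± 5.37 TPM (SD, n = 2) in ND to 1012 ± 82.1 TPM (SD, n = 2) in HFD, a log2 difference of 2.84 with a limma adjusted p of 0.00402. Ctss, the gene of cathepsin S, which makes the late cuts of the invariant chain in macrophages, DCs and B cells, rose from 653.6 ± 4.67 TPM to 1239 ± 8.63 TPM (SD, n = 2 each), a log2 difference of 0.92 with a limma adjusted p of 0.00449. The level of Ctss was thus higher in HFD while that of its substrate Cd74 was lower.

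Ctsd, an aspartic protease of lysosomes, rose by 1.76 on the log2 scale (limma adjusted p = 0.00477), Ctsz by 1.04 and Ctsb by 0.97. Ifi30, the thiol reductase that opens disulfide bonds of antigens, rose by 0.69 and Lgmn, an asparaginyl endopeptidase, by 0.64, and both calls were lost under median-ratio scaling (adjusted p of 0.0617 for Ifi30 and 0.0663 for Lgmn). Lgmn also fell short of the fold limit under quantile normalization (0.55) and on rescaling without the 50 most abundant genes (0.58). Ctsh, an aminopeptidase, was the gene called lower, at -0.63 with a limma adjusted p of 0.00712. Cst3, an inhibitor of cathepsins, had a log2 difference of -0.44 and did not reach the 1.5-fold limit, and Sppl2a, which cleaves the last membrane stub of the invariant chain, was not called (0.20, limma adjusted p = 0.180). Most of this list are general lysosomal enzymes with many other substrates.

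Of 3 genes that set the turnover of class II at the surface, 1 was called lower and 0 higher, beside 10.3% and 8.08% of all genes tested. March1, a ubiquitin ligase that removes class II from the surface, was at 6.9 and 7.8 TPM in ND and at 4.7 and 4.4 TPM in HFD. It was called lower (-0.59, limma adjusted p = 0.0352), just past the fold limit, and the call was lost without HFD replicate 1 (adjusted p = 0.0752) and without HFD replicate 2 (adjusted p = 0.0767). March8, a related ligase, and Cd83, which counters March1, were not called, with log2 differences of 0.32 and -0.17.

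**Figure D4:**
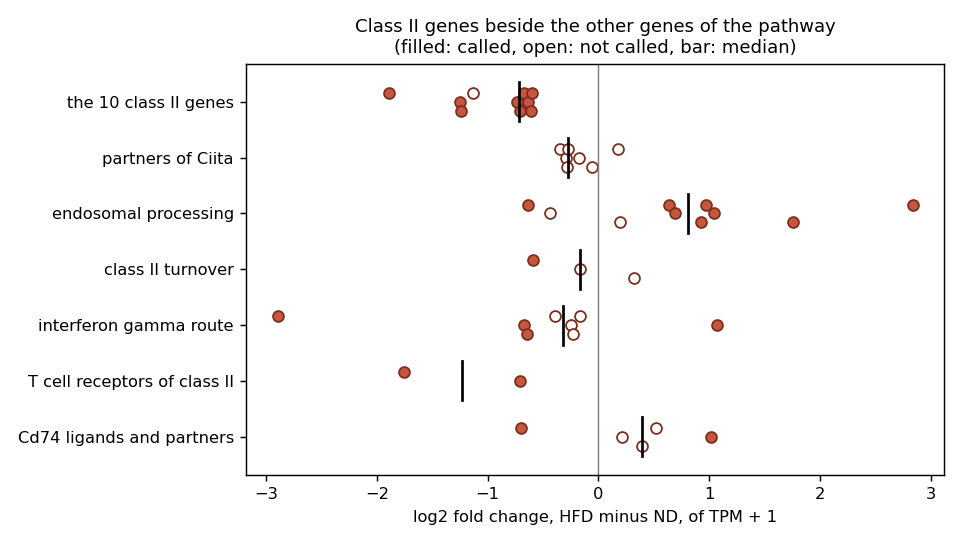
Log2 difference (HFD minus ND, of TPM + 1) of the 10 class II genes and of the other genes of the pathway by list, filled where called, open where not, with a black bar at the median of each list. The class II genes lie to the left of 0 with a median of -0.72, the partners of Ciita are open with a median of -0.28, and the genes of endosomal processing lie mostly to the right with a median of 0.80.

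Interferon gamma is the main inducer of Ciita outside of the cells that express it constitutively, and its route was mixed. Of 8 genes, 3 were called lower and 1 higher, beside 10.3% and 8.08% of all genes tested, with a median log2 difference of -0.32. With no filter on low values, 1 of the 8 was called lower. Ifng itself, a cytokine of T and NK cells, was at 16.9 and 17.9 TPM in ND and at 1.2 and 1.8 TPM in HFD. It was lower in both HFD samples, with a log2 difference of -2.89 ± 0.16 (SE) and a limma adjusted p of 0.00613. Jak2, a kinase of the receptor, and Irf1, a transcription factor that acts on an inducible promoter of Ciita, were lower by amounts near those of the class II genes, at -0.67 and -0.64 (limma adjusted p of 0.0252 and 0.0233). Jak2 was no longer called without HFD replicate 1 (adjusted p = 0.0676), nor Irf1 without HFD replicate 2 (log2 difference -0.54), and neither passed with no filter. Ifngr2, a receptor chain, rose by 1.07 (limma adjusted p = 0.00536).

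Of 2 receptors that bind class II on T cells, 2 were called lower, beside 10.3% of all genes tested. Cd4, the coreceptor, was at 9.5 and 10 TPM in ND and at 1.9 and 2.5 TPM in HFD (-1.75, limma adjusted p = 0.00924), and Lag3, an inhibitory receptor for class II, was at 5.3 and 5.4 TPM in ND and at 2.6 and 3.2 TPM in HFD (-0.71, limma adjusted p = 0.0335). The call of Lag3 was lost under median-ratio scaling (adjusted p = 0.0650) and under quantile normalization (adjusted p = 0.1003). Of 5 ligands and partners of Cd74 as a receptor, 1 was called higher and 1 lower, beside 8.08% and 10.3% of all genes tested. Cd44, its signalling partner, was called higher (1.02, limma adjusted p = 0.00789) and Cxcr2 lower (-0.70, limma adjusted p = 0.0290) at levels of 1.4 TPM and less. The call of Cxcr2 was lost under median-ratio scaling (adjusted p = 0.0512), under quantile normalization (adjusted p = 0.104) and with a pseudocount of 5 (log2 difference -0.22). Mif, Ddt and Cxcr4 were not called, with log2 differences of 0.39, 0.21 and 0.51.

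Markers of the cells that carry class II were measured in the same libraries. Ptprc, the gene of CD45, was at 54.5 and 59.4 TPM in ND and at 55.3 and 53.7 TPM in HFD, the groups overlapping (limma adjusted p = 0.547). B cell markers were called lower for 5 of 5, beside 10.3% of all genes tested, which is also the background for the other marker lists, and their summed level was 114 to 115.6 TPM in ND and 23.1 to 27.1 TPM in HFD. Of the conventional DC markers 3 of 7 were called lower (Cd209a at -2.61, Batf3 at -1.67 and Zbtb46 at -0.80), with a summed level of 683.9 to 708.1 TPM in ND and 178.3 to 187.9 TPM in HFD. The call of Zbtb46 was lost under quantile normalization (adjusted p = 0.0509) and with a pseudocount of 5 (log2 difference -0.39). Xcr1, Clec9a, Flt3 and Ccr7, which also mark conventional DCs or their mature state, were not called. Plasmacytoid DC markers were called lower for 3 of the 4 tested, and their sum was 367.5 to 380.6 TPM in ND and 204.9 to 209.1 TPM in HFD.

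Macrophage markers were mixed, as 2 of 9 were called higher, beside 8.08% of all genes tested (Adgre1 at 0.78 and Cd68 at 0.86) and 1 lower (C1qa at -0.62, lost under median-ratio scaling with an adjusted p of 0.0767). Both HFD values lay below both ND values for 6 of the 9 and above them for 2, beside 32.8% and 34.1% of all genes tested. Csf1r (-0.56) and C1qc (-0.46) had limma adjusted p of 0.00929 and 0.00966 without reaching the 1.5-fold limit, and Csf1r was called under quantile normalization (-0.71). The summed level of the 9 markers was 18348.6 to 18984.5 TPM in ND and 15549.1 to 16410.8 TPM in HFD. It is mostly Lyz2, C1qa, C1qb and C1qc, each lower in both HFD samples. Without these, again chosen after the values had been seen, it stood at 1536.8 and 1531.6 TPM in ND and at 2287.5 and 2309.9 TPM in HFD. That rest is mostly Cd68, at a mean of 860.8 TPM in ND and 1564.1 TPM in HFD. Adgre1 was also higher, Fcgr1 overlapped between the diets, and Csf1r and Mertk were lower in both HFD samples. The sum of the class II genes was 26249 to 27861 TPM in ND and 16453.1 to 17574.8 TPM in HFD. T cell markers were called lower for 3 of 3. Relative to ND, the summed level in HFD was 0.629 for the class II genes. For marker lists it was 0.856 for macrophage, 0.219 for B cell, 0.263 for conventional DC, 0.553 for plasmacytoid DC and 0.158 for T cell markers. The conventional DC sum is mostly Cd209a and Batf3, and without these, a choice made after the values had been seen, it stood at 68.6 and 70.9 TPM in ND and at 31 and 58.1 TPM in HFD (0.639 of ND on average, with the HFD samples far apart). The plasmacytoid DC sum is mostly Bst2, and without it, also chosen after the values had been seen, was 0.187 of ND. That rest is mostly Ly6d, at a mean of 41.85 TPM in ND and 6.25 TPM in HFD. Tcf4 was not called (log2 difference -0.09), and Ccr9 did not pass the filter. The part of any of these cell types in the class II values was not tested. None of the B cell or conventional DC markers was at 0 in a sample.

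**Figure D5:**
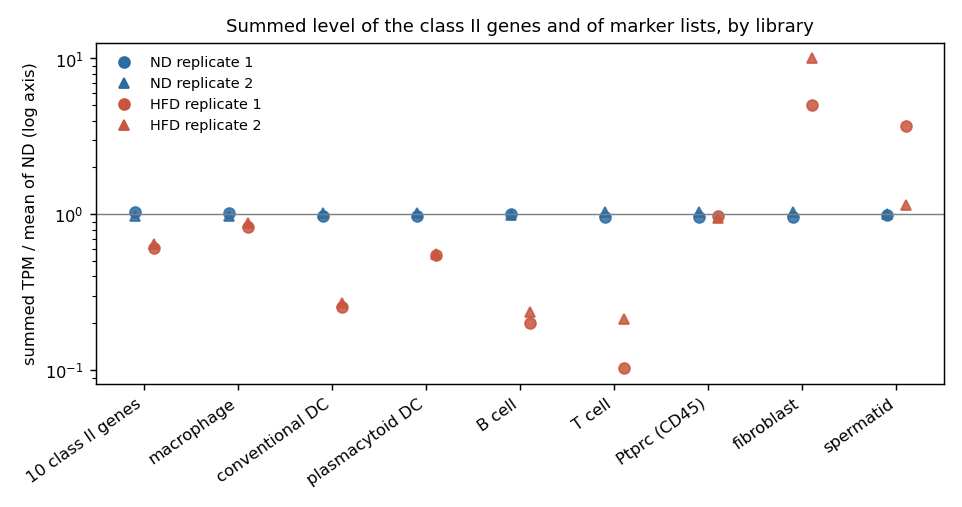
Summed TPM of the class II genes and of marker lists in each library, divided by the mean of the ND samples, on a log axis, with ND in blue, HFD in red, circles for replicate 1 and triangles for replicate 2. The HFD sums lie below 1 for the class II genes (0.629 of ND) and for macrophage (0.856), plasmacytoid DC (0.553), B cell (0.219) and T cell markers (0.158). So do those of conventional DC markers (0.263, or 0.639 without Cd209a and Batf3). Ptprc stays near 1, and fibroblast markers are higher in both HFD libraries.

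Libraries of the 2 diets also differed in ways outside these cells. Fibroblast markers summed to 502.4 and 538.9 TPM in ND and to 2625.7 and 5228.2 TPM in HFD, and spermatid markers to 1666.7 and 1683.9 TPM in ND and to 6225.2 and 1937.9 TPM in the HFD replicates 1 and 2. Replicates correlated at r = 0.994 in ND and 0.966 in HFD over the genes tested, and 175 genes in ND and 1933 in HFD differed at least 2-fold between the replicates on TPM + 1. TPM are shares, and the part of these other transcripts in the class II values was not tested. Ratios within a library, such as that of Cd74 to the chains, do not depend on this scaling.

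By likeness of pattern over the 4 samples, the genes outside the lists that lay nearest to the mean profile of H2-Aa, H2-Ab1 and H2-Eb1 were Junb, Mir5107, Phlda1, Bcl3 and Mir223. They were taken from 8042 genes whose mean reached 10 TPM, by root mean square distance of centred log2(TPM + 1). The distance was 0.0106 for Junb, an AP-1 subunit, at 5418.6 and 5029.1 TPM in ND and at 3238.3 and 3455.8 TPM in HFD, against 0.0219 for Cd74 itself. Among the class II genes, Cd74 and H2-DMb1 (0.0555) lay near this profile, Ciita was at 0.146, and H2-DMa, H2-Ob, H2-Oa and H2-DMb2 lay at 0.301 to 0.624. With only 4 samples in 2 groups, many genes can come close to any such profile.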

How the data were processed

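RNA-seq was carried out on CD45+ cells of eWAT, with 2 samples for each diet. Libraries were made from mRNA with a stranded kit, and the submitters' processing notes name Trim Galore 0.4.2, cutadapt 1.9.1, STAR 2.6.1e, featureCounts 1.6.2 and the mm10 genome. The authors removed duplicate reads, counted the rest and deposited a TPM value for each gene of a sample. The gene annotation is not given in the sources used here.

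Values were joined by gene symbol and genes were kept that reached a TPM of 1 in 2 samples or more. Then log2(TPM + 1) was compared between the diets with limma 3.58.1 in R 4.3.3 (lmFit, eBayes with a variance trend) and Benjamini-Hochberg adjustment over all 16849 genes. No count model was used, since TPM are not counts. A fold change on this scale understates the change of low genes. Ratios within a library were compared by two-sided exact permutation tests over samples. The fit was tested on simulated data.

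The 10 genes and the lists of pathway and marker genes were chosen with earlier results of these data known. All pathway and marker genes could be named, called or not, and 5 further genes were named by likeness to the classical chains. The values of 1 gene of the pathway lists are not reported here. Removing duplicates can lower the values of very abundant genes, and this effect was not tested.

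The TPM of 1 read per kb, estimated from 193 to 233 microRNA genes per sample at a tolerance of 0.15 for a whole read, was 0.0702 and 0.0607 in ND and 0.0618 and 0.0711 in HFD. Read numbers use GENCODE vM21 exon lengths and are approximate. Promoters came from RefSeq (GRCm38.p6). Transcripts were aligned with biopython 1.88 and figures drawn with matplotlib 3.10.9 in Python 3.11.15. Alternatives were pseudocounts of 0.1 and 5, no filter, a mean TPM of at least 5, no variance trend, median-ratio scaling, a block for the replicate number, quantile normalization, a rescaling that leaves out the 50 most abundant genes, other fold limits and each sample left out.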

Additional observations from a re-analysis of the deposited data

How the results depend on the processing

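The 10 class II genes were lower in HFD in 86 of 86 results under the alternatives other than leaving out a sample, of which 69 kept the side of the threshold, and in 40 of 40 fits with a sample left out. Of the 10, 9 were called, against 3 with the replicate block, 5 under median-ratio scaling, 4 under quantile normalization, 5 of the 6 that remained on rescaling without the 50 most abundant genes, 3 at a fold limit of 2, and 0 to 10 with a sample left out. Over all genes, 3097 were called, against 812 with the replicate block and 2015 with a pseudocount of 5. The median log2 difference of -0.72 became -0.76 and -0.69 with pseudocounts of 0.1 and 5, -0.74 under median-ratio scaling, -0.68 under quantile normalization, -1.25 without the 50 most abundant genes, which leaves out H2-Aa, H2-Ab1, H2-Eb1 and Cd74, and -0.74 to -0.64 with a sample left out.

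The labels do not say whether replicate numbers pair the samples. Over all genes tested, the correlation of deviations was -0.015 for samples of the same number. This value cannot show whether such samples were handled together. The replicate block is therefore given as a comparison of settings. With it, the differences were the same and the limma adjusted p rose past the threshold for H2-Aa (-0.60, 0.0594), H2-Ab1 (-0.71, 0.0576), H2-Eb1 (-0.64, 0.0603), H2-Ob (-1.25, 0.0585), Cd74 (-0.67, 0.0576) and Ciita (-0.74, 0.102). Under median-ratio scaling the calls lost were H2-Aa (-0.62), H2-Ab1 (-0.73), H2-Eb1 (-0.66) and Cd74 (-0.70). Under quantile normalization they were H2-Aa (-0.38), H2-Ab1 (-0.57), H2-Eb1 (-0.50), H2-DMb1 (-0.55) and Cd74 (-0.42). Ciita was not called with a pseudocount of 5 (-0.53) or with no filter (-0.74). The cause of these shifts was not tested.

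With a sample left out, a lone sample being assumed to vary like the other group, the differences ran from -0.65 to -0.55 for H2-Aa, -0.77 to -0.65 for H2-Ab1, -0.69 to -0.59 for H2-Eb1, -1.27 to -1.22 for H2-DMa, -0.62 to -0.60 for H2-DMb1, -1.92 to -1.86 for H2-DMb2, -1.70 to -0.56 for H2-Oa, -1.44 to -1.06 for H2-Ob, -0.73 to -0.61 for Cd74 and -0.87 to -0.61 for Ciita. The ratio of DM to DO (log2 difference 0.35) ran from -0.13 without HFD replicate 1 to 0.83 without HFD replicate 2, and the difference of Socs1, not called, turned from -0.23 to 0.046 without HFD replicate 1. Of 429 results for 49 other named genes under the other alternatives, 47 lost a call, 2 gained one and 0 turned. The thinnest value, of H2-Oa in HFD replicate 1, rests on about 198 reads, and 2 samples per diet limit every p-value.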

Other observations

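A microRNA gene lies within the span of Cd74 on chromosome 18 and was listed with its own value. Mir5107 was at 21591.4 and 19885.9 TPM in ND and at 12689.8 and 13575.1 TPM in HFD, higher than any of the class II genes in each sample. Its model is 88 bases long, so that few reads make a high TPM. By the step of 1 read per kb it held about 27100 and 28800 reads in ND and 18100 and 16800 in HFD, which is 18.3%, 18.3%, 18.3% and 18.6% of the reads of Cd74 in the same samples. The shares in the 4 libraries were alike. Whether such reads were counted for both genes is not given in the sources used here, and the part of Cd74 transcripts in the value of Mir5107 was not tested.

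Of the 188 genes that reached a mean of 1000 TPM in a diet, 25 (13.3%) were called higher in HFD and 40 (21.3%) lower, beside 8.08% and 10.3% of all genes tested. The class II genes among them were H2-Aa, H2-Ab1, H2-Eb1, Cd74 and H2-DMb1, all called lower.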
